A study of Mus musculus with 9 samples.

Results

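The 10 genes described here are read by T cells on the surface of the cells that present antigen to them, and they were taken by gene symbol from a table of 28379 genes: Cd80, Cd86, Cd40, Cd83, Icosl, Cd274, Pdcd1lg2, Tnfsf9, Tnfsf8 and Havcr2. All 10 were found, and all 10 were among the 17002 genes that passed the filter on low counts. T cell costimulatory and inhibitory ligands is a working name for them. Cd40 and Havcr2, which encodes TIM-3, are better known as receptors, and Cd83 encodes a surface molecule of activated antigen presenting cells, so the name holds in the strict sense for the other 7.

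RNA was sequenced from primary bone marrow-derived macrophages (BMDMs) of mice, which are C57BL/6J in the methods of the study, in 3 groups of 3 libraries. BMDMs are grown from marrow precursors with the growth factor M-CSF, and M-CSF was present in every group at 20 ng/ml. RANKL, the cytokine that turns these precursors into osteoclasts, was left out in the PBS group and added at 100 ng/ml in the RANKL group. For the RANKL + Vit D + K group this dose came with 1000 nM vitamin D and 20 μM vitamin K, and treatment lasted 48 h. These doses are those of the labels, and the methods give another dose of vitamin K, so the dose in these cultures is uncertain. The vitamins were calcitriol and menaquinone-4 and were given together, so the share of each cannot be told apart. No label ties a replicate to its own culture or animal, and the methods speak of pooled RNA, so p-values measure the spread between these libraries, which may be technical.

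A naive T cell needs a second signal beside the antigen, and the ligands of the B7 family give or withhold it. CD80 and CD86 bind the activating receptor CD28 and the inhibitory receptor CTLA-4, ICOSL binds ICOS, and PD-L1 and PD-L2, encoded by Cd274 and Pdcd1lg2, bind the inhibitory receptor PD-1. The TNF superfamily adds the ligands 4-1BBL (Tnfsf9) and CD30L (Tnfsf8), and the TNF receptor superfamily adds CD40, through which helper T cells activate the presenting cell. RANKL is also a ligand of the TNF superfamily, and calcitriol acts through the vitamin D receptor (VDR), a transcription factor.

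Total counts were between 65915112 and 68229647 per library, so depth differed by at most 1.04-fold. Macrophage markers were present in every library: 8 of 8 were measured, and their summed FPKM, a level scaled to transcript length and depth, was 26410 to 30650 with PBS, 16670 to 24300 with RANKL and 4533 to 11580 with the vitamins. Most of each sum was Lyz2 alone, at 24180 to 28240, 15000 to 22220 and 3189 to 10170 FPKM. With the vitamins, 6 of these 8 markers fell against RANKL and 1 rose, where 17.2% of all genes tested were called lower and 16.4% higher. The sum of 8 osteoclast markers was 22.8 to 30.4, 484.5 to 1010 and 58.2 to 93.0 in the same order. Each of them but Atp6v0d2 (log2 fold change -0.23, adjusted p = 0.701) was called lower with the vitamins against RANKL, beside 17.2% of all genes. The sum of 8 dendritic cell markers was 0.973 to 1.40 with PBS, 1.33 to 1.67 with RANKL and 0.212 to 0.503 with the vitamins, and Siglech stayed under 0.1 throughout. The sum of 4 T cell markers reached 4.42 in the RANKL group and no more than 0.847 in the others. Most of the RANKL sum was Cd4, at 3.77, 2.34 and 2.26 FPKM. Cd4 and Cd5 were called higher with RANKL against PBS and Cd2 and Lck were not, beside 2.35% of all genes tested called higher. The 5 further T cell markers, Cd3d, Cd3e, Cd3g, Cd8a and Cd8b1, were not analysed here. The largest sum in any library was 0.815 for 5 B cell markers, 0.130 for 3 natural killer cell markers and 0.924 for 6 stromal markers. For 6 neutrophil markers, the sums were 2.36 to 44.0, 3.32 to 50.4 and 0.0574 to 0.217. The part of these shifts in the results was not tested, and in bulk RNA fewer cells of a type cannot be told apart from less RNA per cell.

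In the RANKL + Vit D + K group, called the vitamin group below, replicate 2 stood apart from replicates 1 and 3. Of 5725 genes that changed between the vitamin and RANKL groups, this library was the vitamin library nearest to the RANKL mean for 78.3%, against 8.52% for replicate 1 and 13.1% for replicate 3. Its root mean square log2 distance was 1.26 to replicate 1 and 1.09 to replicate 3, which were 0.892 from each other. Changes of the 10 genes with the vitamins are given below with and without it.

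With RANKL alone, Icosl and Cd83 fell and none of the 10 genes rose, at an adjusted p-value under 0.05. Over all genes tested, 2.35% were called higher and 1.26% lower in this comparison. When the vitamins were added to RANKL, Cd274, Cd86 and Tnfsf9 rose, and Icosl, Pdcd1lg2 and Cd80 fell. Here 16.4% of all genes were called higher and 17.2% lower, which is 2796 and 2929 genes, and with limma on log2(FPKM + 0.1) the calls were 2184 and 3953 and with limma on log2(FPKM + 1) they were 2215 and 3801. Against PBS, Cd274 and Cd86 were higher and Icosl and Cd83 lower with RANKL and the vitamins, beside 19.8% of all genes higher and 21.0% lower. The median log2 fold change of the 10 genes was 0.16, -0.72 and -0.61 in these comparisons, and that of all genes tested was -0.04 in each. For the vitamins against RANKL the median of the 10 depended on the low genes: it was 0.021 over the 8 genes left when a group mean of 1 FPKM or more was required, and -0.24 with limma on log2(FPKM + 1). The libraries of the RANKL group enter both of the first 2 comparisons, and those of each other group are likewise shared, so the comparisons are not independent.

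**Figure D1:**
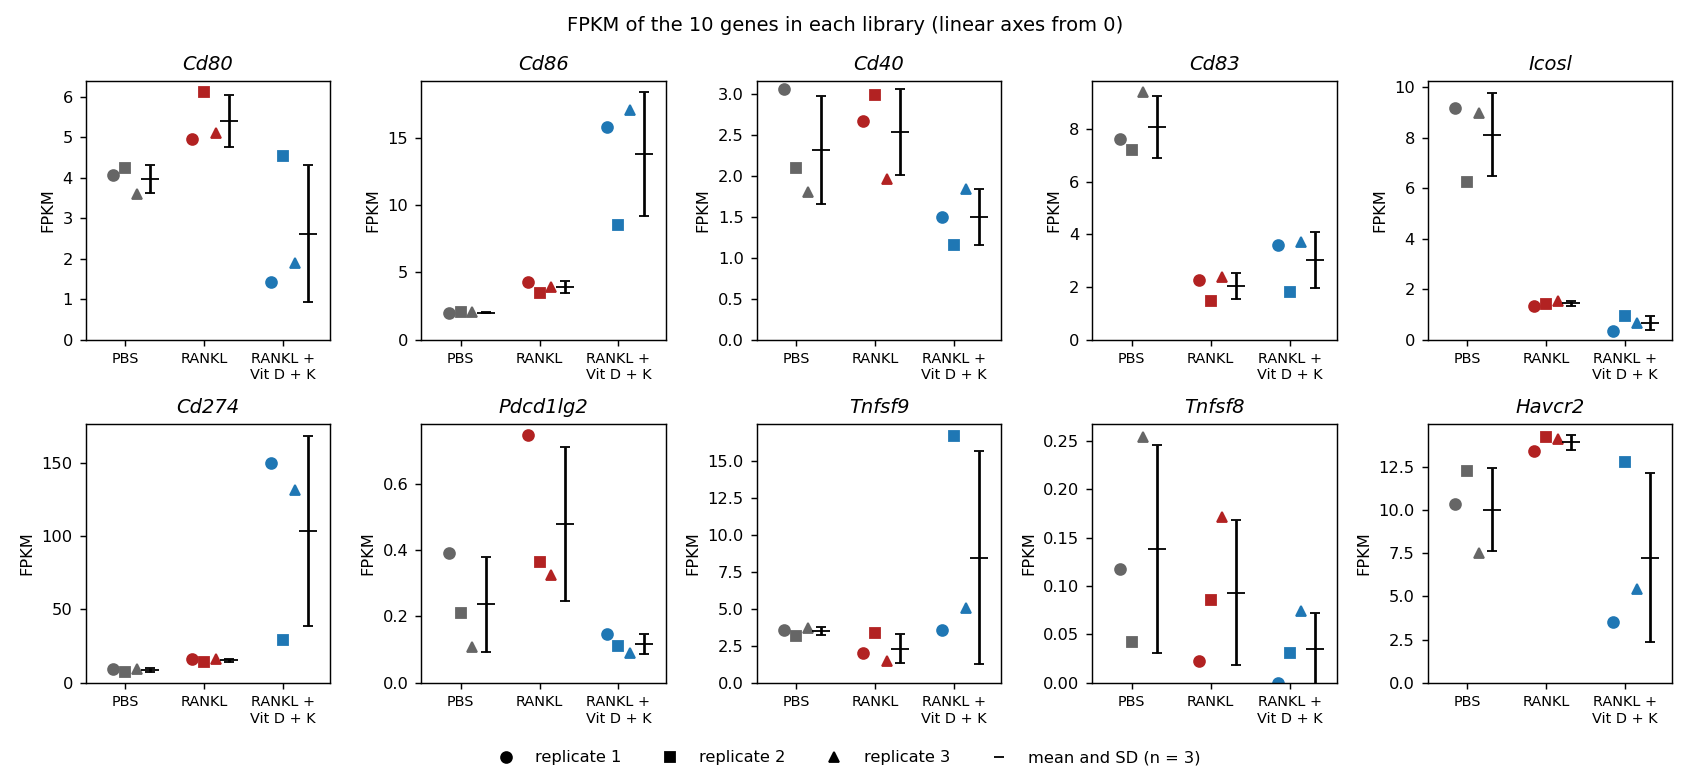
FPKM of each gene in each of the 9 libraries, with the mean and SD of the 3 libraries beside them; each panel has its own linear axis from 0. Cd274 lies between 7.30 and 16.0 FPKM in the PBS and RANKL libraries and at 149.6, 29.3 and 131.3 FPKM with the vitamins, and vitamin replicate 2 (square) is the vitamin library nearest to the RANKL group for Cd80, Cd86, Cd83, Icosl, Cd274 and Havcr2 and the farthest from it for Tnfsf9 and Cd40.

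Counted by levels alone, the FPKM of 4 of the 10 genes were higher in every RANKL library than in any PBS library (Cd80, Cd86, Cd274 and Havcr2) and those of 2 were lower (Cd83 and Icosl), against 22.4% and 12.9% of all genes. Between the vitamin and RANKL groups, 3 genes did not overlap upwards (Cd86, Cd274 and Tnfsf9) and 5 downwards (Cd80, Cd40, Icosl, Pdcd1lg2 and Havcr2), against 17.0% and 29.2%. Between the vitamin and PBS groups, 2 did not overlap upwards (Cd86 and Cd274) and 2 downwards (Cd83 and Icosl), against 24.8% and 27.7%. With 3 libraries against 3, the exact two-sided permutation test cannot go below p = 0.1, which is its value for each of these genes.

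Cd274 and Pdcd1lg2, the ligands of PD-1, lie next to each other on chromosome 19 in the same direction, Cd274 at chr19:29367455-29388095 and Pdcd1lg2 at chr19:29410919-29471161, with 22823 bases between them in the deposited coordinates. The 250 bases before each gene's RefSeq start (GRCm38.p6, plus strand) are shown because the levels of these neighbours differed in direction when the vitamins were added. Capitals mark matches to the motifs searched, which were AGGTCA and AGTTCA (half-sites of the VDR) and AANNGAAA (the core that interferon regulatory factors bind), each on both strands.
Cd274, chr19:29367188-29367437: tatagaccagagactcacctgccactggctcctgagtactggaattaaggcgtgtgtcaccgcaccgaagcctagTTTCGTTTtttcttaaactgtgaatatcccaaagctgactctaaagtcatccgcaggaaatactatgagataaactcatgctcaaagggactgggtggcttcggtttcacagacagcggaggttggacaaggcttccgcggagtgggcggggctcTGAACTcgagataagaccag
Pdcd1lg2, chr19:29410669-29410918: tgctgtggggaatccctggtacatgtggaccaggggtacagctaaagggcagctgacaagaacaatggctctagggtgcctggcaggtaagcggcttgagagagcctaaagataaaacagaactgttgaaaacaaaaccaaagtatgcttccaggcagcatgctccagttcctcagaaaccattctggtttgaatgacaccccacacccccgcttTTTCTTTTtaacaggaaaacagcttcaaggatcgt

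In the Cd274 window, TGAACT, which is AGTTCA read on the other strand, lies 20 to 15 bases before the start, and TTTCGTTT, an AANNGAAA match on the other strand, 175 to 168 bases before it. The Pdcd1lg2 window holds 1 AANNGAAA match, TTTCTTTT, 35 to 28 bases before the start. The promoter table held 6 of the 10 genes (Cd80, Icosl, Cd274, Pdcd1lg2, Tnfsf8 and Havcr2). Of these, Havcr2 had AGGTCA 84 to 79 bases before the start, Tnfsf8 had AAAGGAAA 103 to 96 bases before it, and Cd80 and Icosl had no match. Among 32851 promoters of the same length, 14.0% held AGGTCA, 11.8% AGTTCA and 21.3% AANNGAAA. A match is a description of the letters and not evidence of binding.

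Cd274, which encodes PD-L1, reached the highest level of the 10 genes. Its FPKM was 9.64, 7.30 and 9.62 with PBS, 16.0, 14.0 and 15.9 with RANKL, and 149.6, 29.3 and 131.3 with RANKL and the vitamins, in the order of the replicates. All RANKL libraries lay above all PBS libraries, and all vitamin libraries above all RANKL libraries, with replicate 2 nearest to them. The means were 8.86 ± 1.35, 15.3 ± 1.09 and 103.4 ± 64.8 FPKM (SD, n = 3). Among the genes tested, the group mean ranked 4457 with PBS, 2919 with RANKL and 361 with the vitamins.

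Against RANKL, Cd274 rose by 2.95 on the log2 scale with the vitamins (SE 0.54, adjusted p = 0.00442), and 5.65% of all genes tested changed by more in either direction. Without vitamin replicate 2 the change was 3.41 (adjusted p = 3.94e-06), and it stayed between 2.38 and 3.41 and past the threshold in all 17 alternative settings. Against PBS the change was 3.62 (SE 0.56, adjusted p = 0.00138), and 4.08 without that library. The change with RANKL alone was 0.66 (SE 0.50, adjusted p = 0.541). It was 0.67 with an adjusted p of 0.0248 without vitamin replicate 2, and 0.72 with 0.0240 when only the PBS and RANKL libraries were fitted, so this call depends on the libraries that set the spread. An antisense gene, AC119228.1, overlaps Cd274, and since no source says that counting used the strand, its reads cannot be told apart from those of Cd274.

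Pdcd1lg2, which encodes PD-L2, was near the bottom of the range in every group. Its FPKM was 0.392, 0.210 and 0.108 with PBS, 0.746, 0.363 and 0.326 with RANKL, and 0.148, 0.112 and 0.0890 with the vitamins, from 14 to 110 counts per library. The RANKL and PBS libraries overlapped, and all vitamin libraries lay below all RANKL libraries. Pdcd1lg2 fell by 1.86 on the log2 scale with the vitamins against RANKL (SE 0.60, adjusted p = 0.0403). This call was lost when any of 7 of the 9 libraries was left out, with an adjusted p of 0.0573 without PBS replicate 2, 0.171, 0.0513 and 0.0622 without RANKL replicates 1, 2 and 3, and 0.0635, 0.0686 and 0.120 without vitamin replicates 1, 2 and 3. The change was -1.36 without RANKL replicate 1 and -1.75 without vitamin replicate 2, and without the filter on low counts the adjusted p was 0.0572. The log2 fold change was 0.90 (adjusted p = 0.463) for RANKL against PBS and -0.96 (adjusted p = 0.226) for the vitamins against PBS, or -0.85 (adjusted p = 0.330) without vitamin replicate 2. Without PBS replicate 1 the change was 1.53 for RANKL and -0.33 for the vitamins against PBS, and without RANKL replicate 1 it was 0.41 for RANKL. The antisense gene A930007I19Rik overlaps Pdcd1lg2, with the same limit on its counts.

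Cd86 and Cd80 encode the ligands that CD28 and CTLA-4 share, and their levels moved apart. The FPKM of Cd86 was 1.93, 2.01 and 2.06 with PBS, 4.29, 3.43 and 3.91 with RANKL, and 15.8, 8.52 and 17.0 with the vitamins, for means of 2.0 ± 0.063, 3.88 ± 0.44 and 13.8 ± 4.60 (SD, n = 3). The 3 groups did not overlap, and vitamin replicate 2 was again the lowest of its group.

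Cd86 rose by 2.0 on the log2 scale with the vitamins against RANKL (SE 0.28, adjusted p = 0.00163) and by 2.83 against PBS (SE 0.29, adjusted p = 0.000322). Without vitamin replicate 2 these changes were 2.29 and 3.13, and both calls held in all 17 alternatives. The change with RANKL against PBS was 0.83 (SE 0.28, adjusted p = 0.145). The same contrast had an adjusted p of 0.00670 without vitamin replicate 2, 0.0134 when only the PBS and RANKL libraries were fitted and 0.0382 with DESeq2.

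The FPKM of Cd80 was 4.07, 4.23 and 3.58 with PBS, 4.94, 6.12 and 5.10 with RANKL, and 1.41, 4.54 and 1.89 with the vitamins, where the value of replicate 2 lay above all 3 PBS libraries. All vitamin libraries lay below all RANKL libraries, with means of 3.96 ± 0.34, 5.39 ± 0.64 and 2.61 ± 1.69 FPKM (SD, n = 3). Cd80 fell by 0.94 on the log2 scale with the vitamins against RANKL (SE 0.32, adjusted p = 0.0492), and by 1.49 without vitamin replicate 2 (adjusted p = 0.000123). Leaving out any of the other 8 libraries lost the call: the adjusted p was 0.0805, 0.0770 and 0.0790 without PBS replicates 1, 2 and 3, 0.0998, 0.110 and 0.105 without RANKL replicates 1, 2 and 3, and 0.135 and 0.172 without vitamin replicates 1 and 3. It was also lost with RLE size factors (adjusted p = 0.0514), without the filter on low counts (0.0817) and with only the RANKL and vitamin libraries (0.107). Against PBS, Cd80 changed by -0.62 with the vitamins (adjusted p = 0.148) and by -1.17 without vitamin replicate 2 (adjusted p = 0.000388). It changed by -0.30 without vitamin replicate 1 (adjusted p = 0.47) and by -0.40 without vitamin replicate 3 (adjusted p = 0.44). The change with RANKL against PBS was 0.32 (adjusted p = 0.664).

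Within a library, the ratio of Cd86 to Cd80 in FPKM was 0.475, 0.474 and 0.574 with PBS, 0.868, 0.560 and 0.766 with RANKL, and 11.2, 1.88 and 9.04 with the vitamins. Cd80 was thus the higher of the pair in all 6 libraries without the vitamins and Cd86 in all 3 with them, replicate 2 included. The exact permutation test of the log2 ratio gave p = 0.1 for the vitamins against RANKL, the smallest that 3 against 3 libraries allow, and p = 0.2 for RANKL against PBS. The ratio of Cd274 to Cd80 was 1.73 to 2.69, 2.29 to 3.23 and 6.45 to 106.2 in the 3 groups, and again did not overlap between the vitamin and RANKL groups (exact permutation p = 0.1). The ratio of Cd274 to Cd86 was 3.64 to 4.98 with PBS, 3.72 to 4.10 with RANKL, and 9.49, 3.44 and 7.70 with the vitamins. The PBS and RANKL groups overlapped, and the vitamin group overlapped both through its replicate 2 (exact permutation p = 0.4 for each pair of groups).

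**Figure D2:**
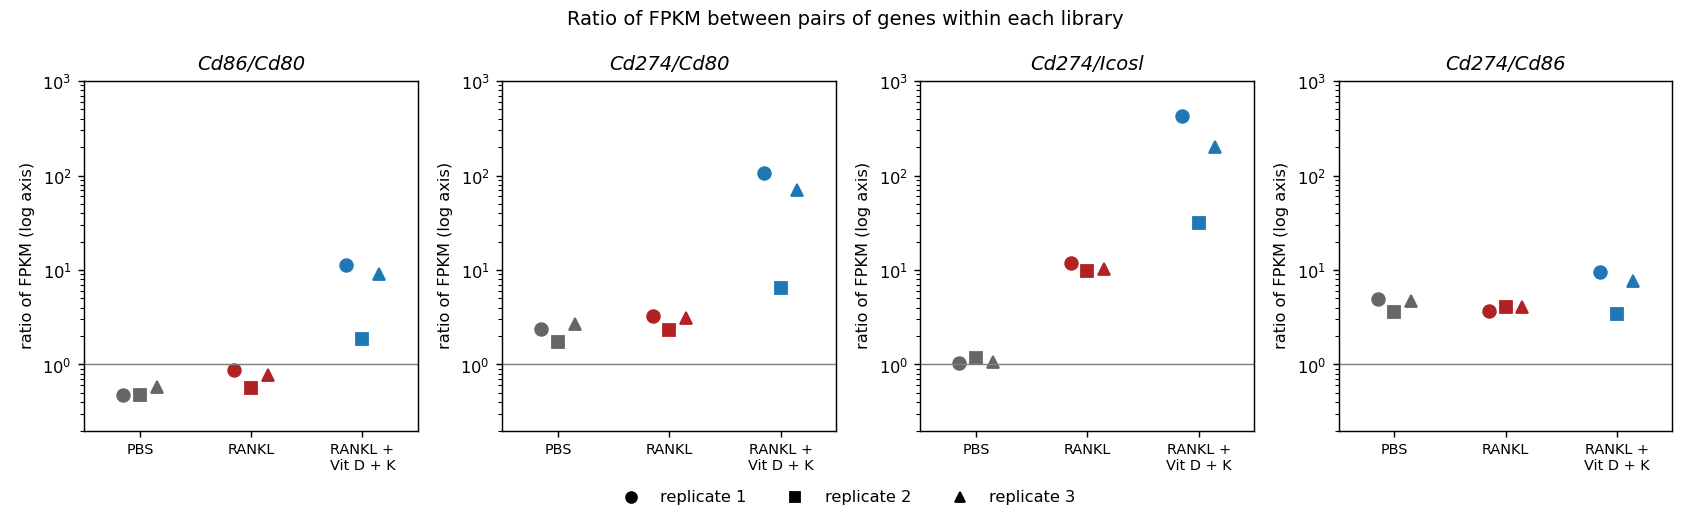
Ratio of FPKM between pairs of genes within each of the 9 libraries, on a log axis, by group and replicate; the grey line marks a ratio of 1. Cd86/Cd80 lies below 1 in all PBS and RANKL libraries and at 11.2, 1.88 and 9.04 with the vitamins, while the Cd274/Cd86 ratio of vitamin replicate 2, 3.44, lies below all RANKL libraries.

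Icosl, the ligand of ICOS, was the gene that fell in both steps. Its FPKM was 9.20, 6.23 and 8.97 with PBS, 1.33, 1.43 and 1.54 with RANKL, and 0.355, 0.938 and 0.659 with the vitamins, for means of 8.13 ± 1.65, 1.43 ± 0.10 and 0.651 ± 0.29 (SD, n = 3). No groups overlapped. Icosl fell by 2.63 on the log2 scale with RANKL against PBS (SE 0.29, adjusted p = 0.00305), and 2.45% of all genes tested changed by more. It fell by 3.65 with the vitamins against PBS (SE 0.31, adjusted p = 0.000195), and the change was -3.92 without vitamin replicate 2. Both calls held in all 17 alternatives.

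The further fall of Icosl with the vitamins against RANKL was 1.02 on the log2 scale (SE 0.28, adjusted p = 0.0235), and 1.29 without vitamin replicate 2 (adjusted p = 0.00494). It was no longer called without RANKL replicate 1 (adjusted p = 0.0587), RANKL replicate 3 (0.0747) or vitamin replicate 3 (0.0682), or when only the RANKL and vitamin libraries were fitted (0.0615). The ratio of Cd274 to Icosl in FPKM was 1.05 to 1.17 with PBS, 9.84 to 11.98 with RANKL and 31.2 to 421.7 with the vitamins, and no groups overlapped (exact permutation p = 0.1 for each pair of groups).

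Tnfsf9, which encodes 4-1BBL, the ligand of the receptor 4-1BB, was the one of these genes for which vitamin replicate 2 was the highest of all 9 libraries. Its FPKM was 3.59, 3.20 and 3.72 with PBS, 2.02, 3.37 and 1.49 with RANKL, and 3.57, 16.7 and 5.09 with the vitamins. All vitamin libraries lay above all RANKL libraries, by the least in replicate 1, and they overlapped the PBS group. Tnfsf9 rose by 1.98 on the log2 scale with the vitamins against RANKL (SE 0.50, adjusted p = 0.0158), and by 1.14 without vitamin replicate 2 (adjusted p = 0.0150). The call was lost without RANKL replicate 1 (adjusted p = 0.0625) or RANKL replicate 3 (0.0627), and with limma on log2(FPKM + 1) (0.0511).

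Against PBS, the change of Tnfsf9 with the vitamins was 1.23 (SE 0.49, adjusted p = 0.0719). It was 0.39 without vitamin replicate 2 (adjusted p = 0.324) and 1.63 without vitamin replicate 1 (adjusted p = 0.0270), so 1 library of the group decided its size, and DESeq2 gave 1.25 (adjusted p = 0.0288). The change with RANKL against PBS was -0.75 (adjusted p = 0.466). The noncoding gene Gm11110 overlaps Tnfsf9 on the other strand, with the limit given for Cd274.

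Tnfsf8, the ligand of CD30, was the lowest of the 10 genes, with 33, 13 and 73 counts with PBS, 7, 25 and 51 with RANKL and 0, 9 and 22 with the vitamins. These are 0.117, 0.0426 and 0.254 FPKM, 0.0223, 0.0858 and 0.171 FPKM, and 0, 0.0306 and 0.0740 FPKM. The groups overlapped in every comparison, and the 1 library without a count allows up to 3 counts, or 4.48e-06% of its total, by counting error only. The log2 fold change was -0.69, -1.26 and -1.94 for RANKL against PBS, the vitamins against RANKL and the vitamins against PBS (adjusted p = 0.816, 0.447 and 0.225), with SE of 1.15 to 1.20. The last 2 were -1.10 and -1.79 without vitamin replicate 2 (adjusted p = 0.546 and 0.32). With other single libraries left out, the change against RANKL lay between -2.54 (without vitamin replicate 3) and -0.45 (without RANKL replicate 3), and that against PBS between -3.17 (without vitamin replicate 3) and -1.10 (without PBS replicate 3). Counts differed severalfold between replicates of each group, and no change of this gene passed the threshold.

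Cd40, the receptor through which helper T cells activate antigen presenting cells, showed no called change. Its FPKM was 3.06, 2.10 and 1.80 with PBS, 2.67, 2.99 and 1.96 with RANKL, and 1.50, 1.16 and 1.84 with the vitamins. The vitamin libraries lay below all RANKL libraries and overlapped the PBS group. The log2 fold change was -0.59 against RANKL (SE 0.28, adjusted p = 0.138) and -0.59 against PBS (SE 0.28, adjusted p = 0.123), and without vitamin replicate 2 these were both -0.38 (adjusted p = 0.267 and 0.256). Without PBS replicate 1 the change of the vitamins against PBS was -0.29 (adjusted p = 0.482). With RANKL against PBS the log2 fold change was -0.0027 (SE 0.28, adjusted p = 0.997), and its sign turned under other settings.

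Cd83, a marker of mature dendritic cells and activated B cells that stabilises MHC class II and CD86 at the cell surface, fell with RANKL. Its FPKM was 7.62, 7.20 and 9.44 with PBS, 2.28, 1.47 and 2.36 with RANKL, and 3.61, 1.82 and 3.71 with the vitamins. Every library with RANKL lay below every PBS library, while the vitamin and RANKL groups overlapped through vitamin replicate 2. The change was -2.10 on the log2 scale for RANKL against PBS (SE 0.35, adjusted p = 0.0159). It was lost by a small margin without PBS replicate 1 (-2.09, adjusted p = 0.0596), PBS replicate 3 (-1.91, 0.0723), RANKL replicate 1 (-2.20, 0.0594) or RANKL replicate 2 (-1.89, 0.0610).

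With the vitamins against PBS, Cd83 changed by -1.36 (SE 0.34, adjusted p = 0.0126) and by -1.05 without vitamin replicate 2 (adjusted p = 0.00817), and this call held in all 17 alternatives. Against RANKL the change was 0.75 (SE 0.34, adjusted p = 0.120). It was 1.05 without vitamin replicate 2 (adjusted p = 0.00724) and 0.71 with the replicate number as a block (adjusted p = 0.0406), so the call depends on that library and on the block. The block pairs the vitamin libraries with the others by number, although these numbers were not taken to pair them.

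Havcr2 encodes TIM-3, an inhibitory receptor known from exhausted T cells and also found on macrophages and dendritic cells. Its FPKM was 10.3, 12.3 and 7.48 with PBS, 13.4, 14.2 and 14.1 with RANKL, and 3.53, 12.8 and 5.42 with the vitamins. The RANKL libraries lay above all others, and vitamin replicate 2 lay above all PBS libraries while replicates 1 and 3 lay below them. With the vitamins against RANKL, the log2 fold change was -0.85 (SE 0.36, adjusted p = 0.0957), and it was -1.42 without vitamin replicate 2 (adjusted p = 0.000941) and -0.97 with the replicate block (adjusted p = 0.0495). That block pairs the vitamin libraries by number, with the limit given for Cd83. Against PBS the change was -0.49 (adjusted p = 0.293), and -1.07 without vitamin replicate 2 (adjusted p = 0.00371). Without vitamin replicate 1 it was -0.54 against RANKL (adjusted p = 0.239) and -0.14 against PBS (adjusted p = 0.77). Against PBS it was -0.29 both without vitamin replicate 3 (adjusted p = 0.632) and without PBS replicate 2 (adjusted p = 0.632). The change with RANKL against PBS was 0.35 (adjusted p = 0.664).

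**Figure D3:**
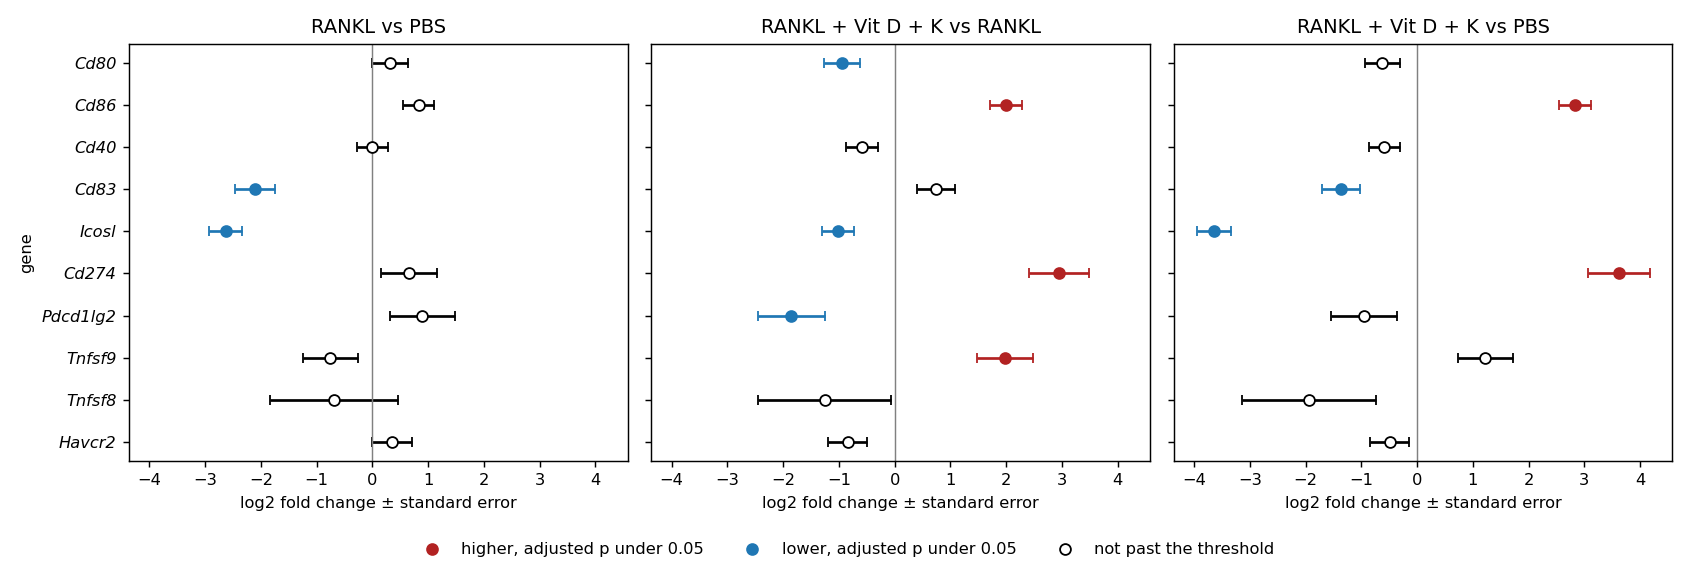
Log2 fold change and standard error of the 10 genes in the 3 comparisons, from the edgeR fit of all 9 libraries; filled points passed an adjusted p-value of 0.05 (red higher, blue lower). RANKL against PBS holds filled points for Cd83 and Icosl (-2.10 and -2.63), and Cd274 (2.95) and Cd86 (2.0) are the highest with the vitamins against RANKL.

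Without vitamin replicate 2, 2 genes were called higher and 2 lower with RANKL against PBS, 4 higher and 3 lower with the vitamins against RANKL, and 2 higher and 4 lower with the vitamins against PBS. The genes gained were Cd274 and Cd86 in the first comparison, Cd83 and Havcr2 in the second and Cd80 and Havcr2 in the third, and Pdcd1lg2 was lost in the second. Over all genes tested, the calls with RANKL against PBS went from 400 higher and 214 lower to 972 (5.46%) and 931 (5.23%) without this library. In the same 8 libraries, 21.2% of all genes were called higher and 25.2% lower with the vitamins against RANKL, and 23.3% and 26.5% against PBS, out of 17806 tested. Among the vitamin libraries, replicate 2 was the highest for 4 of 8 macrophage markers, the lowest for 1 (Fcgr1) and in between for 3. Of 8 osteoclast markers it was the highest for 6 and the lowest for 1 (Atp6v0d2), and Calcr was listed at 0 in all 3. The part of these markers in the differences was not tested.

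**Figure D4:**
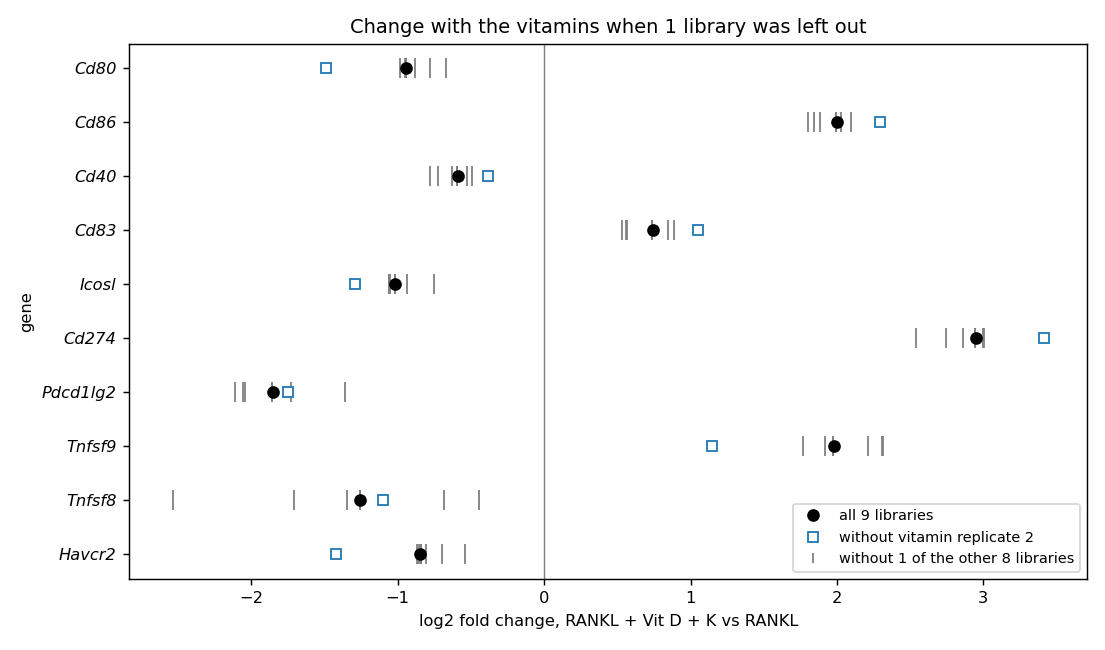
Log2 fold change of the vitamins against RANKL for each gene with all 9 libraries (black), without vitamin replicate 2 (open square) and without each of the other 8 libraries in turn (grey ticks). No gene crosses 0, and leaving out vitamin replicate 2 moves Cd80 from -0.94 to -1.49, Havcr2 from -0.85 to -1.42 and Tnfsf9 from 1.98 to 1.14.

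The order of the 10 levels differed between the groups. With PBS, Havcr2, Cd274, Icosl and Cd83 led with means of 10.0, 8.86, 8.13 and 8.09 FPKM, and each overlapped the next. With RANKL, Cd274 (15.3) and Havcr2 (13.9) led and overlapped, above Cd80 (5.39), which stood apart from Cd86 (3.88). With the vitamins, Cd274 (103.4) stood apart from Cd86 (13.8), and from Cd86 down to Cd40 (1.50) each gene overlapped its neighbour. Pdcd1lg2 and Tnfsf8 held the last places in every group. The summed FPKM of the 10 genes was 44.8 to 49.9 with PBS and 46.9 to 47.7 with RANKL, ranges that overlap. With the vitamins it was 179.5, 75.9 and 167.1. Cd274 made up 16.3 to 20.5% of it with PBS, 29.6 to 33.9% with RANKL, and 83.4, 38.6 and 78.6% with the vitamins.

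The receptors and other partners of these genes were measured in the same libraries. Of 13 listed, 10 were tested, and with RANKL against PBS 1 rose and none fell, with the vitamins against RANKL none rose and 5 fell, and with the vitamins against PBS 1 rose and 6 fell. The shares of all genes called were those given above, 2.35% and 1.26%, 16.4% and 17.2%, and 19.8% and 21.0%. Cd28 had 25.3 to 29.2 FPKM with PBS, 7.50 to 17.9 with RANKL and 7.51 to 23.2 with the vitamins, and no change of it was called. Ctla4 had no count in any library, and Pdcd1, which encodes PD-1, had 4 counts in 1 RANKL library and none elsewhere.

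Tnfrsf9, which encodes 4-1BB, the receptor for the product of Tnfsf9, had 0, 0 and 3 counts with PBS, 176, 277 and 149 with RANKL, and 7, 15 and 11 with the vitamins. It rose with RANKL (adjusted p = 0.00449) and fell when the vitamins were added (log2 fold change -4.03, adjusted p = 0.00346), where the change of Tnfsf9 itself was 1.98. Icos had 66 to 145 counts with PBS, 86 to 118 with RANKL and 0, 0 and 4 with the vitamins (adjusted p = 0.00269 against RANKL), at most 0.571 FPKM. Marchf1, a ubiquitin ligase that removes CD86 and MHC class II from the surface, had 13.8, 10.8 and 12.9 FPKM with PBS, 10.2, 5.84 and 10.1 with RANKL and 0.496, 2.05 and 1.62 with the vitamins. Its log2 fold change of -2.55 against RANKL (SE 0.43, adjusted p = 0.00340) stood beside one of 2.0 for Cd86.

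Cmtm6, which protects PD-L1 from degradation, had 68.2, 58.4 and 64.9 FPKM with PBS, 47.8, 38.7 and 43.1 with RANKL, and 11.5, 26.0 and 14.5 with the vitamins. The groups did not overlap, and Cmtm6 fell by 1.21 on the log2 scale with the vitamins against RANKL (SE 0.23, adjusted p = 0.00502). Cd274 was highest in the libraries where Cmtm6 was lowest, vitamin replicates 1 and 3, and protein was not measured here. With vitamin replicate 2 left out, the changes against RANKL were -1.53 for Cmtm6, -2.85 for Marchf1 and -4.22 for Tnfrsf9. In that fit 1 partner was called higher and 5 lower, beside 21.2% and 25.2% of all genes. With RANKL against PBS it called 1 higher and 2 lower (Cmtm6 and Cmtm4, adjusted p = 0.0147 and 0.0476), beside 5.46% and 5.23% of all genes. With the vitamins against PBS it called 2 higher and 5 lower, with Bag6 gained (adjusted p = 0.00379) and Rgmb lost (0.0770), beside 23.3% and 26.5%. The replicate block, which also pairs the vitamin libraries by number, gained Hmgb1 against PBS (adjusted p = 0.00924) and changed no other call of the partners.

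Of 32 further costimulatory and inhibitory surface genes, 26 were tested. With RANKL against PBS, 4 rose and 1 fell, with the vitamins against RANKL 4 rose and 12 fell, and with the vitamins against PBS 9 rose and 10 fell. Over all genes the shares called were 2.35% and 1.26%, 16.4% and 17.2%, and 19.8% and 21.0%. The median log2 fold change was 0.22, -0.67 and -0.32. Without vitamin replicate 2 the calls were 5 and 2, 5 and 14, and 9 and 12, beside shares of 5.46% and 5.23%, 21.2% and 25.2%, and 23.3% and 26.5%. With the replicate block they were 3 and 1, 4 and 13, and 9 and 10, and Pilra was the gene lost with RANKL against PBS (adjusted p = 0.0682). Over all 17002 genes the block called 538 higher and 287 lower, 2954 and 2919, and 3470 and 3571.

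With RANKL, Cd200, the ligand of an inhibitory receptor of myeloid cells, changed the most: its FPKM was 0.0961, 0.178 and 0.0708 with PBS and 2.96, 4.20 and 1.91 with RANKL (log2 fold change 4.56, adjusted p = 0.0147). Tnfsf15, which encodes TL1A, rose by 2.68 on the log2 scale and Slamf6, a receptor that binds itself, by 1.93, and the inhibitory receptor gene Lilrb4a fell by 0.56. When the vitamins were added, Pvr, the CD155 gene, rose from 2.72 to 3.21 FPKM to 7.61 to 9.60 (log2 fold change 1.73, adjusted p = 0.000389). Cd200r1, the receptor for CD200, rose by 1.56 and Lilrb4a by 1.28. These changes were 1.89 for Pvr, 1.76 for Cd200r1 and 1.38 for Lilrb4a without vitamin replicate 2.

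Tnfrsf14, the receptor HVEM, had 28.9 to 46.6 FPKM with RANKL and 1.46, 7.82 and 3.58 after the vitamins were added, a log2 fold change of -3.13 (adjusted p = 0.00237). Sema4a, a semaphorin that costimulates T cells, changed by -2.62 (adjusted p = 0.00413). The changes were -3.77 for Tnfrsf14 and -3.30 for Sema4a without vitamin replicate 2. Vsig4, an inhibitory B7-related receptor of macrophages, had 38, 41 and 28 counts with RANKL and none in any vitamin library, which makes it at least 11.8-fold lower if each of those libraries is set at 3 counts (adjusted p = 0.00180). The list's median could not move with Vsig4 at this bound, since the bound and the fitted value both lie below it.

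**Figure D5:**
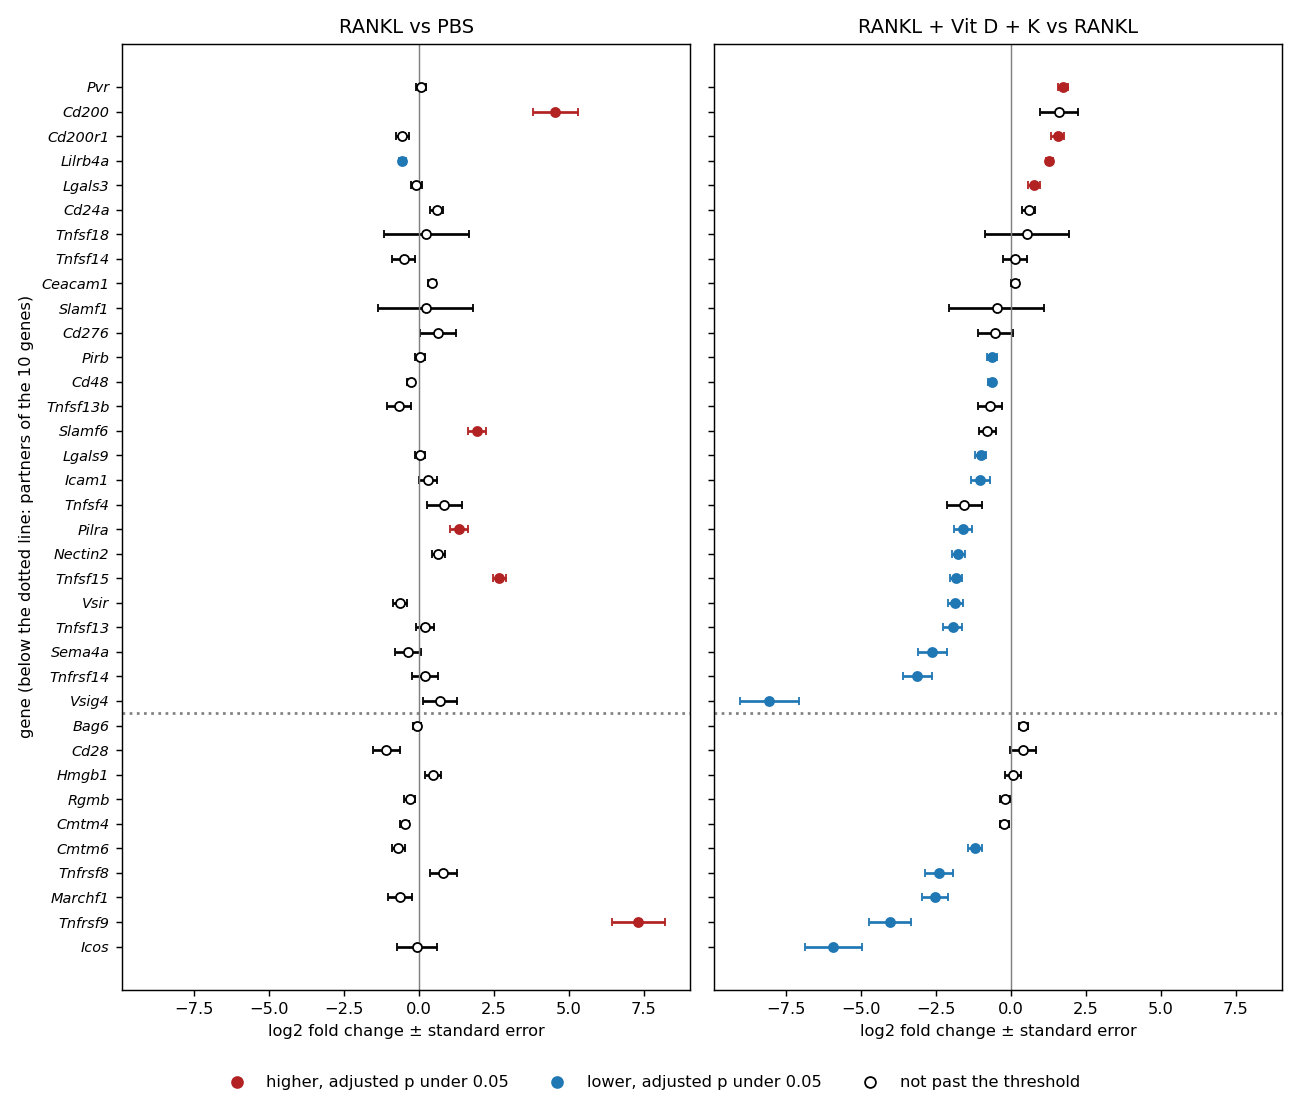
Log2 fold change and standard error of 26 further costimulatory and inhibitory genes (above the dotted line) and 10 partners of the genes described here (below it), for RANKL against PBS (left) and the vitamins against RANKL (right); filled points passed an adjusted p-value of 0.05. On the right 4 points of the upper list are red and 12 blue, and 5 of the lower list are blue; the point of Vsig4 rests on 0 counts with the vitamins, so its place on the axis is not a measured fold.

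Of 11 adaptors and regulators downstream of CD40 and related receptors, 3 rose and none fell with RANKL against PBS, 1 rose and 6 fell with the vitamins against RANKL, and 3 rose and 2 fell with the vitamins against PBS. Traf1, an adaptor induced by NF-κB, had 0.869 to 1.12 FPKM with PBS, 10.6 to 15.1 with RANKL and 4.18 to 7.19 with the vitamins. It rose by 3.56 on the log2 scale with RANKL (SE 0.21, adjusted p = 0.000130) and fell by 1.11 when the vitamins were added (SE 0.19, adjusted p = 0.00339). Nfkb2 and Traf2 rose by 0.89 and 0.67 with RANKL, Map3k14 (the kinase NIK) and Birc3 fell by 1.00 and 0.84 with the vitamins, and Traf6 rose by 0.76. Leaving out vitamin replicate 2 gave -1.32 for Traf1, -1.13 for Map3k14, -0.83 for Birc3 and 0.97 for Traf6. The calls were then 5 higher and 1 lower, 2 and 5, and 5 and 1, and the shares of all genes are those given with the wider list.

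The genes whose log2 CPM followed Cd274 most closely over the 9 libraries included Esyt2 (Pearson r = 0.997) and Zcchc4 (0.995). For Cd86 they were C9orf72 (0.994), Fam172a (0.992) and Spire1 (0.990), and for Havcr2 Lage3 (0.982), Osgep (0.980) and Plekha2 (0.980). The mean FPKM of Esyt2 was 6.95, 9.06 and 20.3 in the PBS, RANKL and vitamin groups, and that of C9orf72 was 10.6, 14.7 and 24.8. The 9 points of each correlation share the same libraries and fall into the same 3 groups, and they are given as a description.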

How the data were processed

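Poly(A)-selected RNA of 9 libraries was sequenced. The deposited table holds, per gene, whole-number counts that the authors left unnormalized, and FPKM that the authors scaled to transcript length and depth. The submitters' processing notes name cutadapt 1.9, HISAT2 2.0.4, StringTie 1.3.4d, edgeR and the human build hg38, although the gene IDs are those of mouse. Coordinates of 24678 of 28379 IDs (86.96%), and of 9 of the 10 genes (all but Icosl), equal GENCODE M21 on GRCm38. Whether counting used the strand is not given in the sources used here. Since counts of 4 occurred 2.22 times as often as those of 3 and 5 on average, counts may not equal single reads, and floors (3 counts) cover counting error only.

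Groups and replicate numbers came from the labels. Counts were fitted in R 4.3.3 with edgeR 4.0.16 (filterByExpr, TMM, quasi-likelihood test of all 9 libraries, Benjamini-Hochberg over 17002 genes, threshold 0.05). An SE is the fold change over the square root of F. FPKM groups and ratios were compared by exact two-sided permutation tests. The alternatives were RLE factors, no filter, a mean FPKM of at least 1, DESeq2 1.42.0, limma 3.58.1 on log2(FPKM + 0.1) and log2(FPKM + 1), a replicate block, only the 2 groups compared, and each library left out. The fits were tested on simulated counts with known changes in the vitamin group. These were drawn with no outlying library and no pairing, so they check the code and not the calls reported. Deviations of same-numbered PBS and RANKL libraries correlated at 0.122 to 0.219, so these numbers were taken to pair them. The fit reported held no replicate term, so its p-values for RANKL against PBS ignore this pairing, which only the replicate block uses. Deviations of vitamin libraries correlated at 0.00625 to 0.107 with RANKL and -0.0216 to 0.0237 with PBS, and their numbers were not taken to pair them. The block ties all 9 libraries by number, so calls it gained for the vitamins rest on a pairing not taken to hold. Promoters were those of RefSeq (GRCm38.p6).

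All 10 genes are named. From each wider list up to 3 called genes per comparison and direction were eligible, by absolute log2 fold change, and for the 3 genes with the highest mean FPKM the 3 most correlated genes, 1 of which is not reported here. Likewise, 1 motif that was searched is not reported. Values of Cd28, Ctla4, Pdcd1, Fcgr1, Atp6v0d2, Calcr, Cmtm4, Bag6, Rgmb, Hmgb1 and Pilra were added after they were seen. The members and lists were chosen with earlier results of these data known. Of the wider lists, 4 costimulatory genes and 1 partner were not analysed here.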

Additional observations from a re-analysis of the deposited data

How the results depend on the processing

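Over 17 settings, 504 values of the 10 genes were refitted: 448 kept their direction and side of the threshold, 30 lost a call, 13 gained one and 13 changed sign. No called change reversed. With RANKL against PBS, 1 gene was called higher with DESeq2, 2 with only these groups fitted and 0 to 2 with a library left out, and 1 to 2 were lower with a library left out. With the vitamins against RANKL, 1 was lower with no filter, 1 with only these groups, and 0 to 3 with a library left out. With the vitamins against PBS, 2 to 4 were lower with a library left out. The change of Cd40 with RANKL was 0.019 with RLE factors, 0.060 with no filter, 0.047 with a mean FPKM of at least 1, 0.031 with DESeq2, 0.14 and 0.10 with limma (pseudocounts 0.1 and 1), 0.026 with the block, 0.054 with only these groups, and -0.093 to 0.31 with a library left out. That of Tnfsf8 was -1.49 to 0.16 with a library left out. With the replicate block, 0 genes were higher and 2 lower with RANKL against PBS, 4 and 4 with the vitamins against RANKL (Cd83 and Havcr2 gained), and 2 and 2 with the vitamins against PBS, and the block changed no other call. The calls gained for Cd83 and Havcr2 rest on a pairing of the vitamin libraries that was not taken to hold. A mean FPKM of at least 1 dropped Pdcd1lg2 and Tnfsf8.

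Over all genes, calls with RANKL against PBS ranged over the settings from 96 to 1057 higher and 30 to 931 lower (400 and 214 in the fit reported), with the vitamins against RANKL from 1578 to 3773 and 1621 to 4486 (2796 and 2929), and with the vitamins against PBS from 2469 to 4143 and 2297 to 4725 (3368 and 3564). With limma on log2(FPKM + 0.1), 2184 were higher and 3953 lower with the vitamins against RANKL, and the median of all genes was -0.16 against -0.04. Pdcd1lg2 and Tnfsf8 rest on low counts, and Tnfsf8 on libraries that differ widely within each group.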
